A study of Mus musculus with 9 samples.

Results

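The 6 genes described here encode hormones that enteroendocrine cells make mainly in the stomach and the proximal small intestine: Gip, Cck, Ghrl, Sct, Sst and Gast. They were taken by name, and every array probe set annotated to exactly 1 of these symbols was kept, which gave 6 probe sets of 45037, 1 for each gene, with none shared with another gene. RNA came from male mice aged 6 to 8 weeks, 3 in each group, on 9 Affymetrix mouse arrays, 3 in each group. Mutant jejunum (Gata4loxP/-VilCre, n = 3) carried a floxed and a null copy of Gata4, control ileum and control jejunum (both Gata4loxP/+VilCre, n = 3 each, separate mice) carried a floxed and a wild-type copy, and Cre was driven by the villin promoter, which acts in the gut epithelium. Every animal, controls included, therefore had Cre and a floxed copy, and the jejunal groups differed in the second copy of Gata4. The jejunal site lay 10 cm beyond the pylorus, and the ileal site 1 cm before the cecum.

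Enteroendocrine cells are rare, scattered cells of the gut epithelium that sense the contents of the lumen and release peptide hormones into the blood or onto neighbouring cells and nerves. The hormones they make change along the gut: proximal segments are rich in cells that make GIP, cholecystokinin, secretin and ghrelin, and distal segments in cells that make glucagon-like peptides, peptide YY and neurotensin. GATA4, which binds DNA through zinc fingers, is present in duodenum and jejunum and absent from the distal ileum.

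In mutant jejunum, 3 of the 5 hormone genes that could be tested fell (Cck, Gip and Sst), 1 rose (Sct), and Ghrl was not called. In control ileum against control jejunum, 4 were lower (Gip, Ghrl, Cck and Sst) and Sct was higher. Between these segments Sct thus ran against the proximal name of the list. Mutant jejunum held Gip and Ghrl at levels well above those of control ileum, while Cck, Sst and Sct of the mutant were not called different from the ileum. In tissue RNA, fewer cells of a type and less RNA per cell cannot be told apart. A call is an adjusted p under 0.05 in limma over all 29307 probe sets tested, and the share of these called was 3.56% for mutant against control jejunum (1.74% higher, 1.82% lower), 16.2% for control ileum against control jejunum (8.36% higher, 7.86% lower) and 2.65% for mutant jejunum against control ileum (1.39% higher, 1.27% lower). The median log2 difference of the 5 genes was -1.07, -2.58 and 0.65 in these comparisons, beside 0.00, 0.01 and -0.01 over all probe sets tested. The first and second of these comparisons share the control jejunum arrays. The groups did not overlap for 4 of the 5 genes in the first comparison, 5 of 5 in the second and 3 of 5 in the third, where 22.5%, 37.4% and 20.6% of all probe sets tested did not.

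The 250 bases upstream of the start site of the 3 genes that fell are shown for their sequence context, since the study removed a factor that binds GATA sequences. They come from RefSeq on the GRCm38.p6 build, 5′ to 3′ on the gene's own strand, and capitals mark matches to AGATAA on either strand, with T also allowed as its first base and G as its last.
Gip promoter, chr11:96024295-96024544, plus strand: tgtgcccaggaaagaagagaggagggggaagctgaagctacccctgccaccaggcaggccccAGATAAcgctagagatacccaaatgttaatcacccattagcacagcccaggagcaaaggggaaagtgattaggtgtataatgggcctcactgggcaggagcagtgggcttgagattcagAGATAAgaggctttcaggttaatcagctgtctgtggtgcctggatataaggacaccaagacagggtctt
Cck promoter, chr9:121495695-121495944, minus strand: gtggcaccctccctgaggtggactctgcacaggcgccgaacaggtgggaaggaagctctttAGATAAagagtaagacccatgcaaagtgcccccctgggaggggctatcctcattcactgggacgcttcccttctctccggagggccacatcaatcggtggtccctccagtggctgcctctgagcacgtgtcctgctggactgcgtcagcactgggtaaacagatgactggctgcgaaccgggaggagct
Sst promoter, chr16:23890845-23891094, minus strand: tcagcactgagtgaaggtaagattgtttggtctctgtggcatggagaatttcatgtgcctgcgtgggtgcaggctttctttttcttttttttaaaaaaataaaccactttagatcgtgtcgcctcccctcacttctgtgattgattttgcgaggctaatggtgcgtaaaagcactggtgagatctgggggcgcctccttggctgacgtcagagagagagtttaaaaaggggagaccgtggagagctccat

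The start sites are those of the RefSeq promoter table. That of Sst lies inside the gene's annotated span, so its window lies within the span too, and the windows of Gip and Sct each overlap their gene's span in part. The Gip window held 2 matches, at 188 to 183 and at 69 to 64 bases before the start site, and the Cck window held 1, at 189 to 184 bases before it. The Sst window held none of these letters, nor did those of Sct and Gast. Ghrl has 4 start sites in the table, and 2 of them, with windows that overlap and lie inside the gene's annotated span, shared 1 match. Of all 32851 such windows in the table, 26.5% held at least 1 match. A match is a run of letters and was not tested as a binding site.

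Levels below are quantile-normalized log2(intensity + 16), a scale that bottoms out near 4. Group values are means ± SD with n = 3, and the values of single arrays follow the order of replicates 1, 2 and 3. Before normalization the ileum arrays were dimmer, with a median intensity of 15.6 to 20.0 against 25.0 to 28.3 on the jejunum arrays, and brightness and segment cannot be told apart. Mutant jejunum 3 lay apart from the other arrays on the second principal component (-55.8) and took the lowest array weight (0.384). For the hormones, the other gene lists and the general enteroendocrine markers, calls against control jejunum that are lost without it are named beside their values. Calls of the other cell type markers, the epithelial and enterocyte ones among them, were not followed with arrays left out. Of 10 epithelial markers, Vil1, the villin gene, among them, 3 were higher in mutant than in control jejunum (Krt18 by 0.84, Tspan8 by 0.84, Krt19 by 0.34) and 5 in control ileum, with none lower. Each gene was counted by its brightest probe set. Tspan8 was called in 2 of its 5 probe sets in the mutant and 3 in the ileum. In the ileum Epcam was called in 1 of 2, and Krt8, not counted, in 2 of 3. The summed level of the 10 markers was 58619 to 63578 in mutant jejunum, 65098 to 67644 in control ileum and 53634 to 55483 in control jejunum, and its part in the hormone values was not tested. Of 6 jejunal enterocyte markers, 5 were lower in mutant than in control jejunum and 6 in control ileum, and of 5 ileal ones, 5 were higher in the mutant and 4 in the ileum. Slc10a2 and Fgf15 were over the detection filter on 0 control jejunum arrays and Fabp6 on 1, so these ileal markers passed it through the groups where they are high. Their part of the ileal counts is given as a description only. Slc51a and Slc51b were over it on all 3 arrays of each group. Fabp6, an ileal bile acid binding protein, stood at 13.90, the top of the normalized scale, on all 3 mutant arrays, where its level is only bounded. It averaged 13.74 ± 0.10 in control ileum and 4.84 ± 0.19 in control jejunum. Gata4 itself has 2 probe sets. The brighter one read 9.61, 9.51 and 9.38 on the mutant arrays and 9.57, 9.49 and 9.52 on the control jejunum arrays (log2 difference -0.02, limma adjusted p = 0.959), and the dimmer one was not called either (0.65, adjusted p = 0.195). No source used here says where they lie relative to the deleted part, so they check nothing about the deletion.

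**Figure D1:**
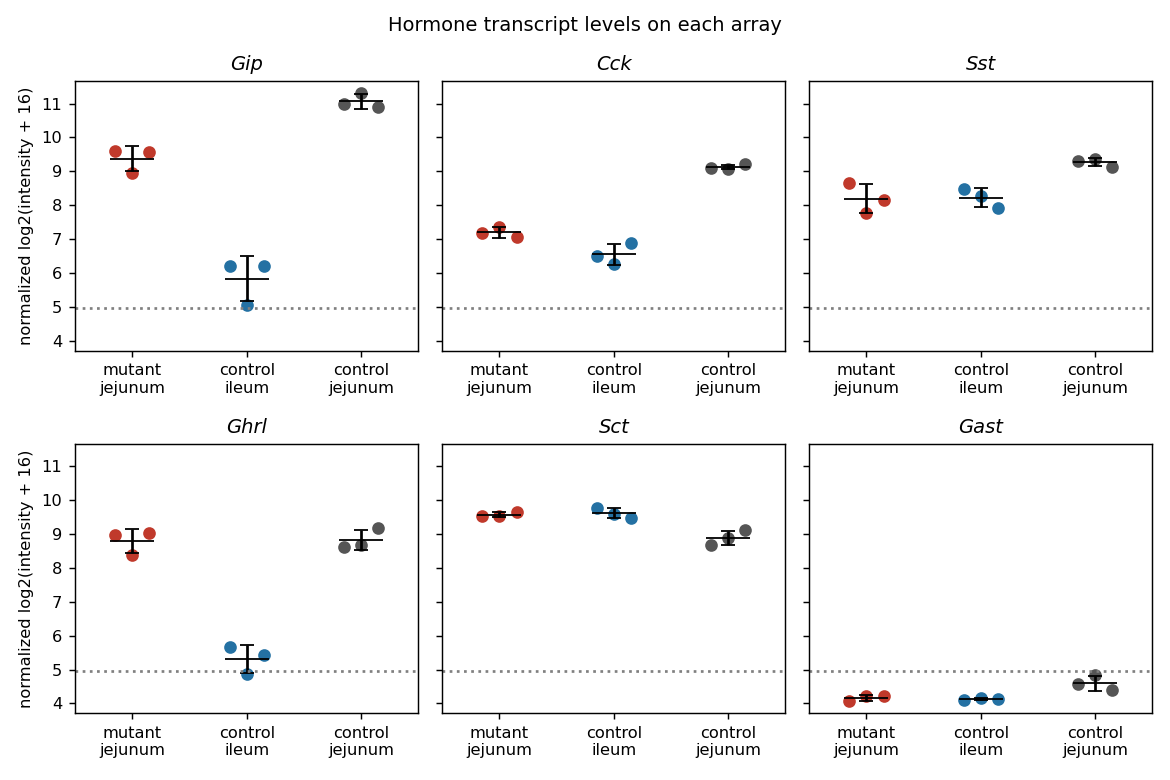
Level of each hormone transcript, as normalized log2(intensity + 16), on the 3 arrays of mutant jejunum (red), control ileum (blue) and control jejunum (grey). Points are arrays in replicate order, bars are mean and SD (n = 3), and the dotted line is the detection filter at 4.95; Gip, Cck and Sst lie lower in mutant than in control jejunum, Ghrl overlaps between the jejunal groups, Sct lies higher, and Gast is under the line on all 9 arrays.

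Gip encodes glucose-dependent insulinotropic polypeptide, the incretin of K cells, which raises insulin secretion after a meal. Its probe set (1449908_at; gene on chromosome 11, 96024532 to 96030831, GRCm38.p6) read 9.60, 8.95 and 9.57 on arrays of mutant jejunum, 6.21, 5.06 and 6.22 on those of control ileum and 11.00, 11.30 and 10.89 on those of control jejunum. The 3 groups did not overlap, and the mutant lay between the segments. Gip averaged 9.37 ± 0.37 in mutant and 11.06 ± 0.21 in control jejunum, a log2 difference of -1.69 (95% confidence interval -2.33 to -1.05, limma adjusted p = 0.0103), or 3.23-fold lower. Control ileum averaged 5.83 ± 0.67, which was lower than control jejunum by a log2 difference of -5.23 (adjusted p = 2.45e-06). Mutant jejunum was higher than control ileum by 3.54 (interval 2.90 to 4.19, adjusted p = 0.000187), or 11.7-fold on this scale. Ileal Gip was dim, with deposited intensities of 38.5, 14.3 and 49.0, and the size of these differences moved with the pseudocount: mutant jejunum against control ileum gave 4.02 with 1 and 2.74 with 64, and control ileum against control jejunum -5.74 and -4.36. The fall of Gip in the mutant lost its call without control jejunum 2 (-1.57, adjusted p = 0.0552).

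Cck encodes cholecystokinin, the hormone of I cells that contracts the gallbladder and stimulates pancreatic enzyme secretion. Its probe set (1419473_a_at; gene on chromosome 9, 121489824 to 121495694) read 7.19, 7.35 and 7.05 on arrays of mutant jejunum, 6.51, 6.26 and 6.87 on those of control ileum and 9.10, 9.08 and 9.20 on those of control jejunum. All mutant arrays lay far below all control jejunum arrays and just above all ileum arrays. Cck averaged 7.20 ± 0.15 in mutant and 9.13 ± 0.07 in control jejunum, a log2 difference of -1.93 (interval -2.29 to -1.57, limma adjusted p = 0.000117), or 3.81-fold lower. In the deposited intensities this was 149 ± 26.2 against 614 ± 72.5. Control ileum (6.55 ± 0.31) was lower than control jejunum by a log2 difference of -2.58 (adjusted p = 4.60e-06). Mutant jejunum exceeded control ileum by 0.65 (interval 0.28 to 1.01, adjusted p = 0.0669), which missed the threshold and passed it with no scaling between arrays (1.09, adjusted p = 0.00445), arrays centred on their medians (0.78, adjusted p = 0.0360), array weights (0.79, adjusted p = 0.0146) or without control ileum 3 (0.81, adjusted p = 0.0348). It missed the threshold in the other 17 of 21 alternatives, with limma adjusted p up to 0.215. With no scaling the median of all probe sets tested also shifted, by 0.41.

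Sst encodes somatostatin, which inhibits the release of many gut hormones and is made by D cells and also by enteric neurons. Its probe set (1417954_at; gene on chromosome 16, 23889573 to 23891342) read 8.66, 7.78 and 8.15 on arrays of mutant jejunum, 8.49, 8.28 and 7.91 on those of control ileum and 9.31, 9.36 and 9.14 on those of control jejunum. Mutant and ileum arrays overlapped, and every control jejunum array lay above them. Sst averaged 8.20 ± 0.44 in mutant and 9.27 ± 0.12 in control jejunum, a log2 difference of -1.07 (interval -1.55 to -0.60, limma adjusted p = 0.0214), or 2.10-fold lower. Control ileum (8.23 ± 0.29) was lower than control jejunum by a log2 difference of -1.04 (adjusted p = 0.00787), and mutant jejunum against control ileum gave -0.03 (interval -0.50 to 0.44, adjusted p = 0.964). The fall in the mutant lost its call without control jejunum 1 (adjusted p = 0.0583), control jejunum 2 (0.0921), control jejunum 3 (0.0620), mutant jejunum 2 (0.0803) or mutant jejunum 3 (0.0530). Of all probe sets tested, 3.56% were called in mutant against control jejunum, and of 11 tested markers of enteric neurons none was. Their summed level was 441 to 889 in mutant jejunum, 657 to 758 in control ileum and 540 to 1033 in control jejunum, in normalized intensity units. Vip, the brightest of the 11 in each group, weighed more in these sums than any other marker. In control ileum against control jejunum 5 of these markers were higher (Elavl4, Uchl1, Nefl, Stmn2 and Snap25, by 0.67 to 1.11) and 1, Vip, was lower (-1.46). In mutant jejunum against control ileum 6 of them were lower. Their part in the Sst values was not tested.

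Ghrl encodes ghrelin, the peptide that stimulates appetite and growth hormone release. Its probe set (1448980_at; gene on chromosome 6, 113716119 to 113719911) read 8.98, 8.38 and 9.02 on arrays of mutant jejunum, 5.68, 4.87 and 5.42 on those of control ileum and 8.61, 8.68 and 9.18 on those of control jejunum. The jejunal groups overlapped, and every ileum array lay far below both. Ghrl averaged 8.79 ± 0.36 in mutant and 8.82 ± 0.31 in control jejunum, a log2 difference of -0.03 (interval -0.57 to 0.51, limma adjusted p = 0.971); the interval spans differences in both directions. Control ileum (5.32 ± 0.41, with 1 array under the detection filter) was lower than control jejunum by a log2 difference of -3.50 (adjusted p = 8.79e-06) and mutant jejunum was higher than control ileum by 3.47 (adjusted p = 4.62e-05), or 11.1-fold on this scale. Ileal Ghrl was dim, with deposited intensities of 22.9, 10.8 and 21.99, and a pseudocount of 1 or 64 gave 4.15 or 2.47 for mutant jejunum against control ileum and -4.18 or -2.50 for control ileum against control jejunum. Mboat4, which encodes the enzyme that acylates ghrelin, was below the filter.

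Sct encodes secretin, the hormone of S cells that drives bicarbonate secretion by the pancreas and bile ducts. Its probe set (1418805_at; gene on chromosome 7, 141278329 to 141279174) read 9.55, 9.52 and 9.65 on arrays of mutant jejunum, 9.78, 9.59 and 9.48 on those of control ileum and 8.68, 8.88 and 9.11 on those of control jejunum. Mutant and ileum arrays overlapped, and every control jejunum array lay below them. Sct averaged 9.57 ± 0.06 in mutant and 8.89 ± 0.21 in control jejunum, a log2 difference of 0.68 (interval 0.39 to 0.98, limma adjusted p = 0.0206), or 1.61-fold higher. In the deposited intensities this was 872 ± 71.4 against 522 ± 98.6. This rise missed the threshold when control jejunum 1 (adjusted p = 0.0601), control jejunum 2 (0.0792) or mutant jejunum 2 (0.0676) was left out. Control ileum (9.62 ± 0.15) was higher than control jejunum by 0.73 (adjusted p = 0.00446). With no scaling between arrays that difference was 0.18 (adjusted p = 0.429), where the median of all probe sets tested shifted by -0.40. Mutant jejunum against control ileum gave -0.05 (interval -0.34 to 0.25, adjusted p = 0.903).

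Gast encodes gastrin, the acid-stimulating hormone of G cells, made chiefly in the gastric antrum. Its probe set (1422915_at; gene on chromosome 11, 100334407 to 100336997) was under the detection filter on all 9 arrays and was not tested. The deposited intensities were 0.931, 3.01 and 2.52 on arrays of mutant jejunum, 0.779, 1.40 and 1.38 on those of control ileum and 8.63, 14.6 and 5.65 on those of control jejunum. The control jejunum arrays held the 3 highest values, all of them near the floor of the arrays. With no filter, mutant against control jejunum gave a log2 difference of -0.43 (limma adjusted p = 0.135), and control ileum against control jejunum gave -0.46 (adjusted p = 0.0447).

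**Figure D2:**
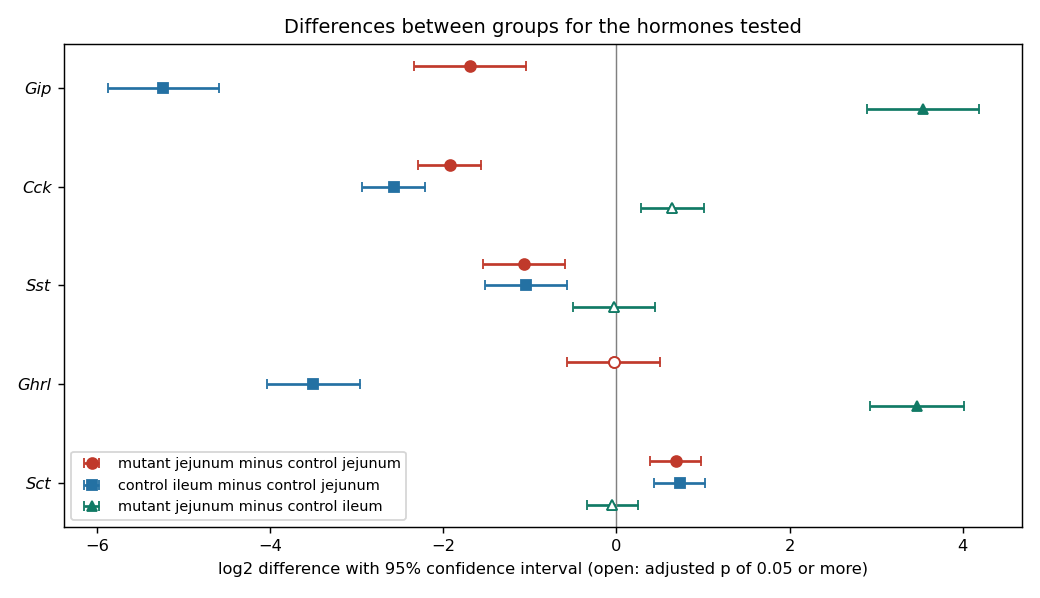
Log2 differences of the 5 hormone genes tested, with 95% confidence intervals from limma, for mutant minus control jejunum (circles), control ileum minus control jejunum (squares) and mutant jejunum minus control ileum (triangles); open symbols missed an adjusted p of 0.05. For Gip the mutant difference of -1.69 stands beside a segment difference of -5.23, for Ghrl -0.03 beside -3.50, for Cck -1.93 beside -2.58, for Sst -1.07 beside -1.04 and for Sct 0.68 beside 0.73.

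Set side by side, the mutant and segment differences had different sizes from hormone to hormone. For Sst and Sct the differences of mutant jejunum and of control ileum from control jejunum were close in size, for Cck the mutant difference was the smaller of the pair, for Gip it was much smaller, and for Ghrl the mutant difference was close to 0. Since both comparisons share the control jejunum arrays, these pairs are given as values and no test was made across them. The comparison that does not use the control jejunum means, mutant jejunum against control ileum, called Gip and Ghrl. The control jejunum arrays still entered its normalization, its filter and its estimate of the spread. By level, Gip and Cck ran from control ileum through mutant to control jejunum, with the mutant and ileum levels of Cck not called apart. Sst ran from mutant and ileum, not called apart, to control jejunum, and Ghrl from ileum to the 2 jejunal groups, not called apart. Sct ran from control jejunum to mutant and ileum, which were not called apart.

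The calls of Gip, Sst and Sct in the mutant rested on single arrays to different degrees. Of the 4 hormone genes called in mutant against control jejunum, 2 were called without control jejunum 1 (Cck and Gip), 1 without control jejunum 2 (Cck) and 2 without mutant jejunum 2 (Cck and Gip). Cck was called with each of the 9 arrays left out in turn, with log2 differences of -1.995 to -1.86 and adjusted p of 8.82e-05 to 0.00142.

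**Figure D3:**
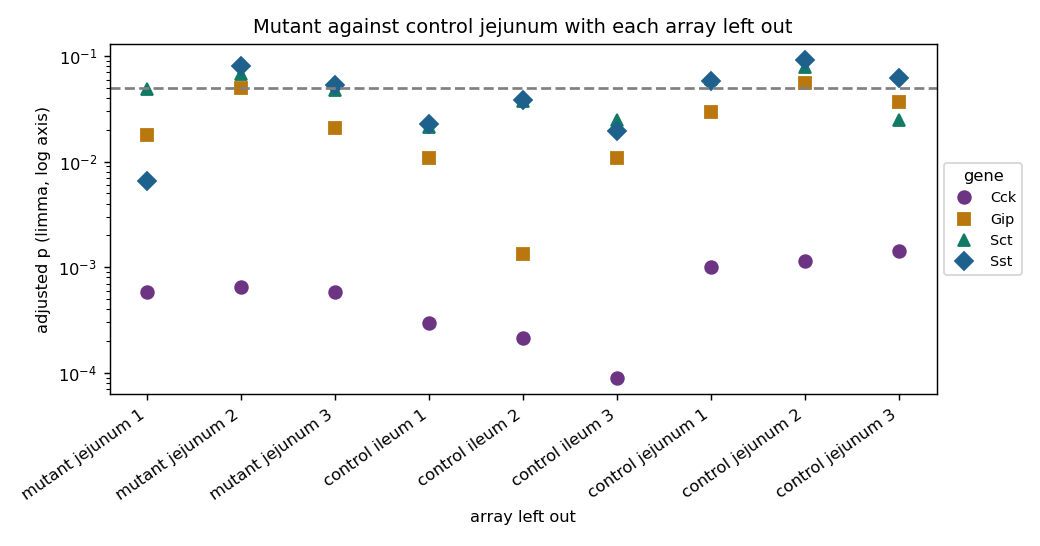
Adjusted p (limma, log axis) of mutant against control jejunum for Cck, Gip, Sct and Sst, with the array named on the horizontal axis left out; the dashed line is 0.05. Cck lies under the line throughout, Gip is over it only without control jejunum 2 (0.0552), and Sct and Sst are over it without several of the jejunal arrays.

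The hormones of the distal gut formed a second list of 4 genes. In mutant against control jejunum Nts and Pyy rose and none fell. Nts, neurotensin, averaged 11.19 ± 0.23 in mutant and 9.54 ± 0.21 in control jejunum (log2 difference 1.65, limma adjusted p = 0.000144), and Pyy, peptide YY, averaged 8.64 ± 0.32 and 7.18 ± 0.42 in the same order (1.46, adjusted p = 0.00335). Gcg, which encodes proglucagon, averaged 8.16 ± 0.04 in mutant and 8.45 ± 0.13 in control jejunum (-0.30, adjusted p = 0.213). In control ileum against control jejunum Gcg was higher by 1.60, Pyy by 2.67 and Nts by 1.51. Insl5, which encodes an insulin-like peptide of the distal gut, averaged 4.81 in mutant jejunum, 5.35 in control ileum and 4.48 in control jejunum and passed the filter only through the 3 ileum arrays, so its ileal difference of 0.87 is given as a value and not counted. Against control jejunum the mutant thus had lower Cck, Gip and Sst and higher Sct, Nts and Pyy, with Ghrl and Gcg not called. Against control ileum, mutant Gcg (-1.90, limma adjusted p = 1.26e-05) and Pyy (-1.21, adjusted p = 0.0159) were lower, and Nts was not called (0.14, adjusted p = 0.684). That call of Gcg held in 21 of 21 alternative settings and that of Pyy in 18.

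General markers of enteroendocrine cells were followed beside the hormones. Of 7 tested, 1 fell in mutant against control jejunum and none rose (median -0.27, against 0.00 over all genes tested). The fall was that of Chgb, the granule protein chromogranin B, at 9.61 ± 0.29 in mutant, 9.35 ± 0.07 in control ileum and 10.38 ± 0.18 in control jejunum (-0.77, limma adjusted p = 0.0212). It lost its call without control jejunum 2 (adjusted p = 0.1002), control jejunum 3 (0.0674) or mutant jejunum 2 (0.0728), with no scaling between arrays (adjusted p = 0.0721) or with arrays centred on their medians (adjusted p = 0.0507). Chga, chromogranin A, averaged 7.10 ± 0.32 in mutant and 7.76 ± 0.21 in control jejunum, a difference of -0.66 that missed the threshold (adjusted p = 0.0740). In control ileum against control jejunum Chgb (-1.03) and Tph1 (-0.74), the enzyme of serotonin synthesis, were lower and the other 5 were not called. The summed level of the 7 markers was 958 to 1405 in mutant jejunum, 1187 to 1205 in control ileum and 1760 to 2118 in control jejunum. Chgb, the brightest of the 7 in each group, weighed more in this sum than any other marker. The other 6 were not called in mutant against control jejunum, so the sum does not stand for the list as a whole. Its part in the hormone values was not tested.

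Prohormones are cut and trimmed into active peptides by convertases and carboxypeptidases. None of the 8 processing genes tested was called in mutant against control jejunum (median 0.15), where 3.56% of all probe sets tested were called. Pcsk1, the main prohormone convertase of enteroendocrine cells, stood at 6.34 ± 0.08 in mutant and 6.32 ± 0.20 in control jejunum (0.02, interval -0.32 to 0.36, limma adjusted p = 0.975). Pcsk1n, an inhibitor of that convertase, was lower in mutant jejunum than in control ileum (-0.84, limma adjusted p = 0.0150), a call held in 18 of 21 alternative settings. In control ileum against control jejunum Cpe, carboxypeptidase E (0.98, adjusted p = 0.0238), and Pcsk1n (0.60, adjusted p = 0.0165) were higher. Both calls were lost with no scaling between arrays (adjusted p = 0.224 and 0.458), that of Cpe also with arrays centred on their medians (adjusted p = 0.0611) or without control jejunum 1 (0.0717), control jejunum 3 (0.0692), control ileum 1 (0.0671) or control ileum 2 (0.0713), and that of Pcsk1n without replicate 2 of control jejunum (0.0643) or of control ileum (0.0648). In the same comparison 5 of 6 smooth muscle markers (Acta2, Actg2, Myh11, Tagln and Cnn1, by 0.64 to 1.61) and 5 of 11 enteric neuron markers were higher, with summed smooth muscle levels of 12130.5 to 15545 in control ileum and 6060 to 8899 in control jejunum, and their part in these values was not tested. Acta2 was called in 1 of its 3 probe sets tested.

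Of 10 receptors for the 6 hormones, 5 passed the filter and none was called in any comparison. Sctr, the secretin receptor, averaged 5.19 ± 0.22 in mutant, 5.54 ± 0.24 in control ileum and 5.11 ± 0.20 in control jejunum, and Gipr, the GIP receptor, averaged 4.56 ± 0.50, 5.21 ± 0.24 and 4.43 ± 0.23 in the same order. All 5 stood near the filter, where the arrays resolve little. Both cholecystokinin receptor genes, Cckar and Cckbr, and the ghrelin receptor gene Ghsr were below it. Of 3 nutrient receptors tested, Ffar4, a receptor for long-chain fatty acids, was higher in mutant than in control jejunum (6.67 ± 0.48 against 5.60 ± 0.06, log2 difference 1.07, adjusted p = 0.0226), a call lost when any of the control jejunum arrays was left out (adjusted p of 0.0609, 0.0771 and 0.0797 without replicates 1, 2 and 3). It was also higher in control ileum than in control jejunum (1.04, adjusted p = 0.00809).

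Of 10 transcription factors of the enteroendocrine lineage, mutant jejunum had 1 higher and 1 lower than control jejunum. Neurog3, which starts the lineage (-0.56, limma adjusted p = 0.126), and Neurod1 (-0.11, adjusted p = 0.851) were not called. Foxa1, a forkhead factor also found outside this lineage, averaged 8.91 ± 0.28 in mutant, 9.58 ± 0.15 in control ileum and 7.61 ± 0.11 in control jejunum, and rose by 1.30 (adjusted p = 0.00103). Pdx1, a homeodomain factor of duodenum and pancreas, averaged 5.94 ± 0.51 in mutant, 4.69 ± 0.29 in control ileum and 7.02 ± 0.10 in control jejunum, and fell by 1.08 (adjusted p = 0.0363, in 1 of its 2 probe sets tested). The call of Pdx1 was lost without control jejunum 1 (adjusted p = 0.0903), control jejunum 2 (0.122), control jejunum 3 (0.102), mutant jejunum 2 (0.128), mutant jejunum 3 (0.0877) or control ileum 2 (0.0503), with a pseudocount of 1 (0.0931), with no filter (0.0682), or when only the jejunal groups were fitted (0.0551).

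RNA of neighbouring organs that make some of these hormones was looked for by marker. None of the tested markers of pancreatic islets (2), pancreatic acinar cells (6) or stomach and Brunner glands (6) was called in mutant against control jejunum, and the insulin gene Ins2 and the gastric genes Gkn1, Tff2, Muc5ac and Pgc were below the filter. Only 3.56% of all probe sets tested were called in that comparison, so the absence of calls among so few markers says little. In control ileum against control jejunum the acinar marker Clps, pancreatic colipase, was higher (2.05, limma adjusted p = 0.00115) and the stomach marker Gkn3 lower (-0.53, adjusted p = 0.0424). Clps was also lower in mutant jejunum than in control ileum (-1.99, adjusted p = 0.00859). The islet marker Ppy gave 0.91 in control ileum against control jejunum and passed the filter only through the 3 ileum arrays. The summed level of the acinar markers was 961 to 1325 in mutant jejunum, 2102 to 5500 in control ileum and 975 to 1071 in control jejunum. Clps, at 11.52 ± 0.78 in control ileum, was the brightest of them and made up most of the ileal sum. The other 5 acinar markers were not called in control ileum against control jejunum, and the median of the list was -0.05. The summed level of the islet markers was 28.2 to 36.9 in mutant jejunum, 43.7 to 85.4 in control ileum and 35.9 to 70.2 in control jejunum. The summed level of the stomach and Brunner gland markers was 257 to 341 in mutant jejunum, 304 to 386 in control ileum and 245 to 335 in control jejunum. The part of these markers in the hormone values was not tested.

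For each hormone whose group means spanned at least 1 on the log2 scale, the 3 genes most alike in pattern were taken by Pearson's r over the 9 arrays, among 1626 probe sets with 1 gene and a span of at least 1. The arrays fall into 3 groups and share 1 normalization, so these values describe the pattern and carry no test. Gip was most like Ugt2a3, a glucuronosyltransferase (r = 0.990), Cat, catalase (r = 0.989), and Gda, guanine deaminase (r = 0.987). Cck was most like Nat8f4 (r = 0.993), Slc23a1, a vitamin C transporter (r = 0.985), and Casp6, a caspase (r = 0.984). Sst was most like Cpox, an enzyme of heme synthesis (r = 0.986), Cyp2b10, a cytochrome P450 (r = 0.956), and Slc5a12, a monocarboxylate transporter (r = 0.945). Ghrl was most like Gata4 itself (r = 0.985), with Onecut2, a homeodomain factor (r = 0.981), and Anxa13, an annexin of enterocytes (r = 0.976), next. The brighter Gata4 probe set averaged 9.50 in mutant jejunum, 5.38 in control ileum and 9.53 in control jejunum. It thus had in common with Ghrl jejunal groups not called apart and an ileum far below them. The dimmer Gata4 probe set read 8.47, 8.29 and 7.91 in mutant and 8.07, 7.30 and 7.34 in control jejunum, also not called apart.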

How the data were processed

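Total RNA of 9 samples was labelled with biotin by a one-cycle procedure, per the labels' protocols, and the authors deposited linear intensities, 1 for each probe set of each array, made with GCOS per the submitters' processing notes. No source used here gives its version, settings or scaling between arrays. Groups come from sample titles; age, sex and separate mice from the design text. No source used here gives a scan date or batch.

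Here 64 of 45101 probe sets were left out as array controls, log2(intensity + 16) was quantile-normalized because trimmed mean intensities ran from 96.8 to 180, and probe sets over the 40th percentile (4.95) on at least 3 of 9 arrays were tested (29307). Gene names come from the platform annotation given (34945 probe sets with 1 gene, 932 with several, 9160 with none). limma 3.58.1 in R 4.3.3 fitted the 3 groups together, with an intensity trend, two-sided tests and Benjamini-Hochberg adjustment over all probe sets tested; every adjusted p is from this fit or, where an alternative is named, from limma under that setting. The fit was tested on simulated data. The brightest tested probe set stood for a gene. All hormone probe sets are named, beside called members of the gene lists, up to 6 per list and comparison, and genes tied to a hormone. Cell type markers are given as counts and sums, with some members named; Gcg, Insl5, Chga, Neurog3, Neurod1, Vil1 and Fabp6 were added outside this rule, after their values were seen. The members, lists and settings were chosen with earlier results of these data known. Normalization, pseudocount, filter, variance model, weights, samples and replicate block were varied.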

Additional observations from a re-analysis of the deposited data

How the results depend on the processing

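Over 20 alternatives chosen with the design and 1 added after seeing the data (arrays scaled to the hybridization spikes), the number of hormone genes called in control ileum against control jejunum was 4 to 6, counting Gast where no filter was set. In mutant against control jejunum it was 1 to 4 with each array left out in turn and 4 in the other settings. In mutant jejunum against control ileum it was 2 to 3 with each array left out and 4 with no scaling between arrays, where the median of all probe sets tested shifted by 0.41. Ghrl in mutant against control jejunum, at -0.03, changed sign with no scaling (0.00032), with arrays centred on their medians (0.047) and over arrays left out (-0.15 to 0.18), and was not called in any of the 21. In mutant jejunum against control ileum, Sct changed sign with no scaling (0.55, adjusted p = 0.0338) and centring (0.24) and over arrays left out (-0.11 to 0.033), and Sst with no scaling (0.50) and centring (0.18) and over arrays left out (-0.26 to 0.18); the cause was not tested. Over all probe sets, calls numbered 400 to 1998 in mutant against control jejunum (1044 as reported), 2862 to 10632 in control ileum against control jejunum (4752) and 199 to 8497 in mutant jejunum against control ileum (778). Rises and falls in mutant against control jejunum, 511 and 533, became 523 and 320 with centring and 250 and 604 with spike scaling. Those in control ileum against control jejunum, 2449 and 2303, became 619 and 10013 with no scaling, 1543 and 2665 with centring and 4210 and 1406 with spike scaling. Those in mutant jejunum against control ileum, 406 and 372, became 8349 and 148, 936 and 248, and 234 and 2496 in the same order. With the replicate block the hormone counts were 4, 5 and 2, as without it, and the same-numbered arrays share only a number (correlation of their deviations over 0.1 in 2 of 9 pairs, from -0.07 to 0.17). The mean over several probe sets was not run, since each hormone has 1. With 3 arrays a group, their number limits the precision, and Gast is too dim to measure.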
